A study of Mus musculus with 4 samples.

Results

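The genes described here are 10 secreted signals, namely the chemokines Ccl2, Ccl7, Ccl19, Cxcl1, Cxcl2, Cxcl5, Cxcl10 and Cxcl14 and the cytokines Il6 and Lif, taken by name from a list out of the 32286 features counted. They were followed cell by cell in stromal cells of mouse bone and bone marrow. The immobilized mice had hindlimb immobilization for 2 weeks from an age of 8 weeks, and their cells were pooled from 6 animals. The control mice had no immobilization, and their cells were pooled from 4 animals. Both groups were C57BL/6J mice of 10 weeks at collection with the same genotype, Tnfsf11tTA/+; LC1; R26-tdTomato. In these mice a tetracycline transactivator sits at 1 copy of Tnfsf11, which encodes RANKL, the cytokine that makes osteoclasts, and switches on the Cre of the LC1 transgene. The Cre then labels a cell and its descendants with tdTomato for good, so the label records past and not only present activity of the locus. Doxycycline, which blocks the transactivator, was given to both groups until birth to keep fetal cells unlabelled. Femurs and tibias of both limbs were digested with their marrow, and live tdTomato+ cells without CD45.2 (a leukocyte surface protein) and Ter119 (an erythroid one) were sorted.

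Each pool gave 1 single-cell library that was sequenced on 2 lanes, with 9960011 and 10084134 unique molecular identifiers (UMIs, counted RNA molecules) for the immobilized pool and 10732720 and 10860328 for the control pool. The lanes shared nearly all barcodes (1747 in the immobilized and 1617 in the control pool) and were averaged as 1 sample, which is why counts can end in 0.5. After filtering, 1386 immobilized and 1418 control cells remained, with medians of 5707 and 5597 UMIs, and 3 kept barcodes occurred in both pools. With 1 pool a group there was no test across animals, and every interval below is a 95% interval for counting error only. The marker-based cell classes were Lepr+ CAR stromal-like cells (CXCL12-abundant reticular cells of the marrow, 350 immobilized and 578 control), osteo-primed stromal-like cells (370 and 219), osteoblast-like cells (455 and 462) and osteocyte-like cells (40 and 5). Granulocyte-like, erythroid-like and B lineage-like cells passed the sort in small numbers (109 immobilized and 73 control cells together) despite the CD45.2 and Ter119 gate. Levels are given as counts per 1000000 UMIs (CPM) of a class; as 3' counts they are not scaled for gene length and are compared between cells, not between genes.

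Chemokines are small secreted proteins that guide leukocytes through G protein-coupled receptors. CCL2 and CCL7 draw monocytes through CCR2, CXCL1, CXCL2 and CXCL5 draw neutrophils through CXCR2, CXCL10 is an interferon-induced ligand of CXCR3 on activated lymphocytes, CCL19 is a ligand of CCR7 on T cells and dendritic cells, and CXCL14 is a chemokine made at steady state by several epithelia and stromata. IL-6 and LIF belong to the cytokines that signal through gp130, the shared receptor subunit encoded by Il6st, and in bone both act on stromal and osteoblast lineage cells. In fibroblastic cells many of these genes are silent until inflammatory signals reach NF-kB or the interferon pathway, and their mRNAs are then made fast and degraded fast.

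On mm10, which is GRCm38, the CXCR2 ligands lie together on chromosome 5 plus strand, with Cxcl5 at 90759360 to 90761624, Cxcl1 at 90891241 to 90893115 and Cxcl2 at 90903871 to 90905938, and Cxcl10 lies farther on at 92346638 to 92348889 on the minus strand. Il6 lies on chromosome 5 at 30013114 to 30019981 (plus strand). Ccl2 (82035571 to 82037453) and Ccl7 (82045712 to 82047525) are neighbours on the plus strand of chromosome 11, where Lif lies at 4257557 to 4272514. Ccl19 lies on chromosome 4 at 42754525 to 42756577 and Cxcl14 on chromosome 13 at 56288643 to 56296551, both on the minus strand.

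The 10 genes fell into broadly and sparsely detected ones. Cxcl14 had 6417 UMIs in 546 immobilized cells and 11096.5 UMIs in 815 control cells, and Ccl19 had 221 UMIs in 194 immobilized cells and 320.5 UMIs in 304 control cells. Both were spread over many cells: the 10 cells with most UMIs held 22.4% (immobilized) and 12.4% (control) of Cxcl14, and 27.6% and 13.4% of Ccl19. Most others sat in a handful of cells. Cxcl10 had 96 UMIs in 13 immobilized cells and 212 UMIs in 33 control cells, and the top 10 cells held 98.4% and 88.0% of them. Ccl2 had 39.5 UMIs in 13 immobilized cells and 132 UMIs in 50 control cells, with 96.2% and 74.6% in the top 10. Cxcl2 had 130.5 UMIs in 20 immobilized cells and 213.5 in 21 control cells, with 94.3% and 89.0% in the top 10. Cxcl1 had 32 UMIs in 14 immobilized cells and 109 in 62 control cells, with 93.8% and 45.9%. Cxcl5 had 54 UMIs in 32 immobilized cells and 111 in 63 control cells, with 71.3% and 50%.

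Counted as a few-cell pattern, with at least 50% of UMIs in 10 cells among genes with 20 or more UMIs in the pool, were 5 of the 7 measured members in the immobilized pool (Ccl2, Cxcl1, Cxcl2, Cxcl5 and Cxcl10) and 4 of 7 in the control pool (the same without Cxcl1). Over all genes measured in the same way the pattern was found for 5.17% in the immobilized and 6.39% in the control pool, and the median gene had 12% and 12.1% of its UMIs in 10 cells. Genes with few UMIs reach the mark more easily, and with a minimum of 50 UMIs the counts were 3 in the immobilized and 4 in the control pool. The genes under the minimum were Ccl7, with 1.5 UMIs in 1 immobilized cell and 16 UMIs in 16 control cells, Il6, with 5 UMIs in 7 immobilized cells and 16 in 5 control cells, and Lif, with 7 UMIs in 9 immobilized cells and 9.5 in 12 control cells. No immobilized cell held more than 1 UMI of Il6 or of Lif. In the control pool the Il6 UMIs lay mainly in 2 osteo-primed stromal-like cells with 6.5 and 5.5 UMIs, and no cell held more than 2 UMIs of Lif.

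**Figure D1:**
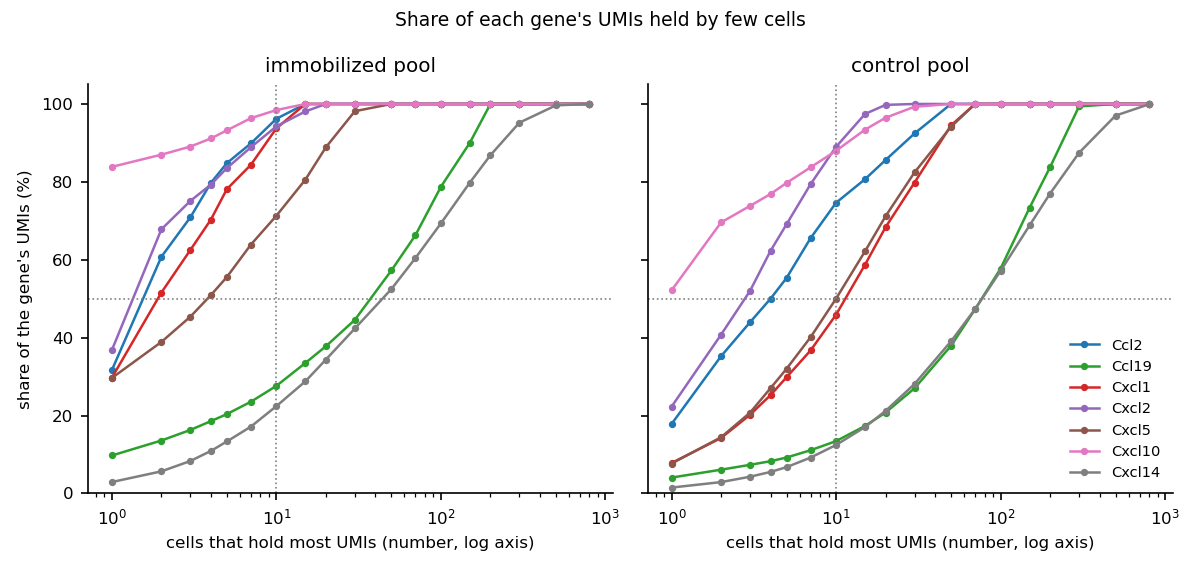
Share of each gene's UMIs (%, vertical axis) held by the cells with most of it, against the number of cells taken (log axis), in the immobilized pool (left) and the control pool (right); dotted lines mark 10 cells and 50%. Cxcl10, Ccl2 and Cxcl2 climb to 74.6% or more within 10 cells in either pool, whereas Cxcl14 and Ccl19 stay at 27.6% or less.

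A gene of low level is found in few cells even when it is evenly spread, so the number of Lepr+ CAR stromal-like cells with a UMI was set against the number expected if the same UMIs fell on cells by depth alone. For Cxcl14 the observed number was 0.97 (immobilized) and 0.92 (control) times the expected one, near the medians of 0.94 and 0.95 over all genes. For Ccl19 it was 0.72 and 0.82 times, so it was more clumped than most genes: only 3.27% and 6.80% of all genes were as low or lower. Ccl2 was found in 0.25 and 0.31 times the expected cells, Cxcl5 in 0.47 and 0.50 times, and Cxcl10 in 0.06 and 0.11 times. Under 0.5 times the expected number lay 3 members in the immobilized pool (Ccl2, Cxcl5 and Cxcl10) and 3 in the control pool (Ccl2, Cxcl1 and Cxcl10), against 0.743% and 0.559% of all genes measured. Cxcl1 with 17 UMIs was under the minimum of 20 in the immobilized Lepr+ CAR stromal-like cells, and at 0.496 times in control cells it was just inside the mark while Cxcl5 at 0.504 times was just outside it.

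The Cxcl10 counts rested on single cells. The highest immobilized cell held 80.5 UMIs, which is 83.9% of the pool's Cxcl10, and the next one, an endothelial-like cell, held 3. The highest control cell held 110.5 UMIs or 52.1% of that pool's Cxcl10, followed by cells with 37 and 9. Without the 3 highest cells, 10.5 UMIs remained in the immobilized and 55.5 in the control pool. The immobilized cell belonged to cluster 12 of the Lepr+ CAR stromal-like class and also held 21.5 UMIs of Ccl19, 112 of Cxcl14, 2.5 of Cxcl1, 1 of Ccl2 and 1 of Cxcl5, with 6.5 UMIs of Icam1 and 12 of Nfkbia, a pair of NF-kB targets. The highest control cell belonged to cluster 3 of the same class and held 23.5 UMIs of Ccl2, 2 of Ccl7, 13 of Ccl19 and 13.5 of Cxcl14, with 5.5 UMIs of the interferon-induced Isg15. The control cell with 37 Cxcl10 UMIs, also in cluster 3, held 7 UMIs of Ccl2, 1 of Ccl7, 5 of Isg15 and 3.5 of Icam1. These cells thus carried several chemokines at a time on a Cxcl14-expressing stromal background, at depths of 10953.5, 8538.5 and 7050 UMIs, above the class medians of 4438.5 (immobilized) and 3982.25 (control). Whether any of them was a doublet that the doublet caller had not marked was not tested.

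Ccl2 was less extreme. The highest immobilized cell held 12.5 UMIs of Ccl2 with 2 of Cxcl10, 8.5 of Ccl19 and 91.5 of Cxcl14, and the second held 11.5. Without the 3 highest cells 11.5 UMIs of Ccl2 were left in the immobilized and 74 in the control pool. To reach 90% of Ccl2 took 8 immobilized and 26 control cells, for Cxcl5 22 and 41, for Ccl19 150 and 240, and for Cxcl14 229 and 336.

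By cell class, Cxcl14 was the broad stromal chemokine. Of Lepr+ CAR stromal-like cells, 98.0% in the immobilized and 95% in the control pool had a UMI of it, at 3259 and 3730 CPM, and after thinning every cell to 2000 UMIs the shares were 91.0% and 87.5%. In osteo-primed stromal-like cells it was found in 29.7% of immobilized and 34.2% of control cells (124 and 174 CPM; thinned 13.7% and 16.5%), and in osteoblast-like cells in 11.6% and 25.5% (8.83 and 15.9 CPM; thinned 2.08% and 3.75%). Haematopoietic-like cells, which should lack it, had a UMI in 4.59% of immobilized and 23.3% of control cells (thinned 2.12% and 11.4%), at median depths of 2205 and 2985 UMIs. The osteoblast-like shares after thinning were at or below these, and are read as background, whose source was not tested. Together both pools had 89.2% of all Cxcl14 UMIs in Lepr+ CAR stromal-like cells.

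Ccl19 was found in 36.0% of immobilized and 39.4% of control Lepr+ CAR stromal-like cells, at 92.0 and 99.9 CPM. Osteo-primed stromal-like cells had 19.0 and 23.5 CPM, osteoblast-like cells 0.38 and 1.26 CPM, and haematopoietic-like cells a UMI in 0.917% and 5.48% of cells. The class thus held 78.9% of all Ccl19 UMIs of both pools. The symbol Ccl19 was carried by 2 of the features counted, and all values here are of 1 of them, the protein-coding gene placed above. Pseudogenes near-identical to Ccl19 are annotated in the mouse, and reads shared with them may have been left uncounted, so the level is uncertain.

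The sparse genes were mostly carried by the same class. Lepr+ CAR stromal-like cells held 89.6% of the Cxcl10, 89.1% of the Cxcl5 and 85.7% of the Ccl7 UMIs of both pools. Of Ccl2 they held 65.6%, with 13.4% in a small group of 55 cells called cluster 9 and 14.0% in granulocyte-like cells. Of Cxcl1 they held 40.4%, with 24.5% in cluster 9 and the rest mainly in osteo-primed stromal-like and osteoblast-like cells. Cxcl2 was not a stromal signal here: 98.0% of its UMIs lay in granulocyte-like cells, at 1126 (938 to 1341) CPM in 13 of 52 immobilized and 1061 (923 to 1215) CPM in 19 of 44 control cells, against 0.327% and 0.153% of skeletal and stromal cells with a UMI. Most of the granulocyte-like cells highest in Cxcl2 carried the granulocyte marker S100a8, as in an immobilized cell with 48 UMIs of Cxcl2 and 36.5 of S100a8. A control cell with 24 UMIs of Cxcl2 had 1 UMI of S100a8. Their cluster also met the naming rule for monocyte- or macrophage-like cells, with 62.5% of that marker list. One control cell of that cluster had 47.5 UMIs of Cxcl2, 23 of Ccl2 and none of S100a8, and it held nearly all Ccl2 of the cluster. Endothelial-like cells were few, and in the immobilized pool 4 of 17 of them (23.5%) held Cxcl10, at 6.5 UMIs in all.

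Among the classes with 50 or more cells, both pools together, the level was highest in Lepr+ CAR stromal-like cells for Ccl19 and Cxcl14 only. For Ccl2, Ccl7, Cxcl1, Cxcl5, Cxcl10 and Il6 cluster 9 ranked first, but only for Cxcl1 did its interval lie clear of the next class. The intervals overlapped with Lepr+ CAR stromal-like cells for Cxcl5 (38.5 against 33.3 CPM, 18.5 to 70.9 and 28.1 to 39.1), Cxcl10 (71.3 against 62.4 CPM, 42.6 to 112 and 55.3 to 70.3) and Ccl7 (7.71 CPM on 2 UMIs against 3.39 CPM), with granulocyte-like cells for Ccl2 (88.6 against 77.2 CPM, 56.2 to 133 and 49.5 to 115), and with granulocyte-like and osteo-primed stromal-like cells for Il6 (13.5 CPM on 3.5 UMIs against 3.22 and 3.10 CPM). For Ccl2, 1 control cell held 23 of the 24 granulocyte-like UMIs. Lepr+ CAR stromal-like cells came next for Ccl2 at 25.5 CPM (21.0 to 30.6), below the interval of cluster 9. Lif ranked first in the unnamed cycling cells on 1.5 UMIs, and no order can be read for it.

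**Figure D2:**
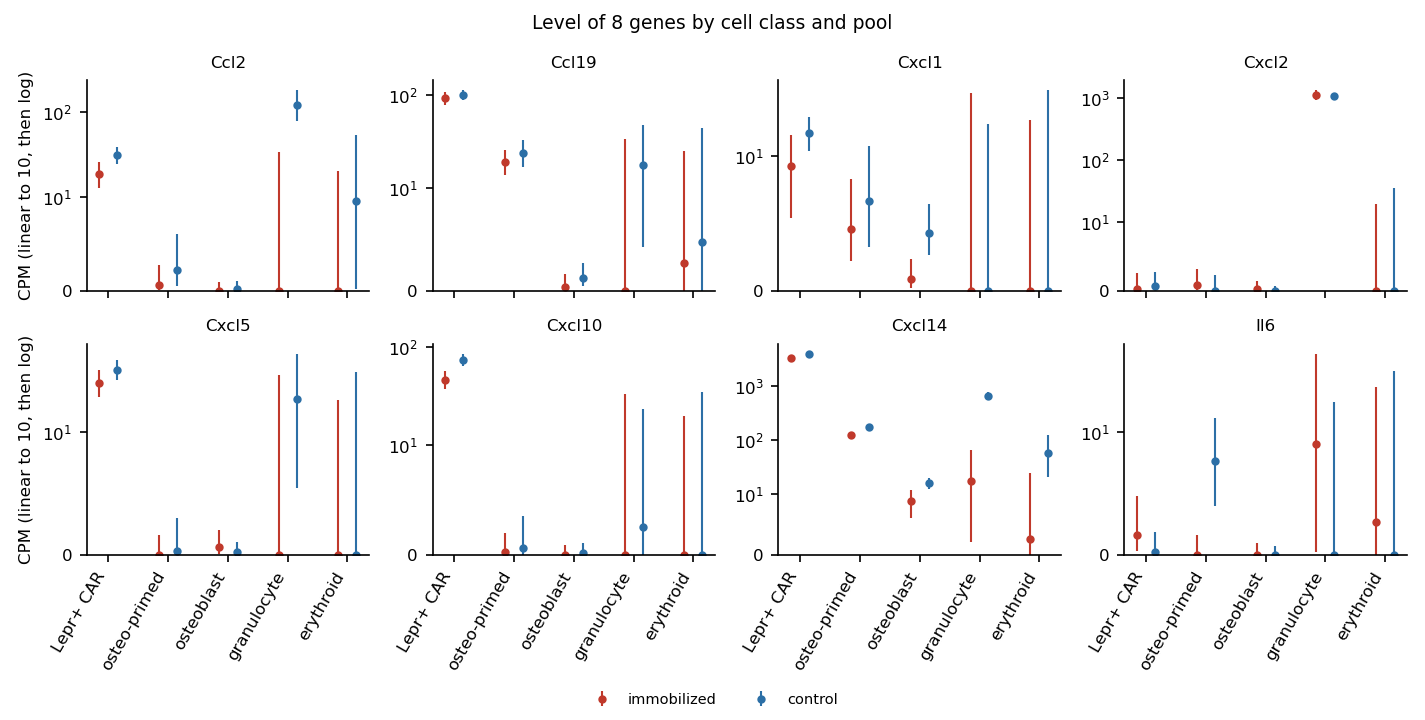
Level of 8 of the genes (CPM, linear to 10 and logarithmic above) in 5 cell classes, with the immobilized pool left of the control pool in each class and bars for the 95% Poisson interval. Cxcl14 and Ccl19 step down from Lepr+ CAR stromal-like to osteoblast-like cells in both pools, and Cxcl2 stands above 1000 CPM in granulocyte-like cells alone among the classes drawn.

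Cluster 9 was named pericyte- or smooth muscle-like by its markers, and the data go against that name for most of it. When cells were clustered at a lower resolution, 42 of the 55 cells (3 immobilized and 39 control) joined the Lepr+ CAR stromal-like class. These 42 cells had no UMI of Rgs5, Acta2 or Myh11, had 6 of 11 pericyte markers at 0, and had Lepr at 1824 CPM and Cxcl12 at 11856 CPM, against 2289 and 16807 CPM in the main class. The remaining 13 cells (5 immobilized and 8 control) had Rgs5 at 16331 CPM. The 42 Lepr-expressing cells carried Cxcl1 and Ccl2 more densely than the main Lepr+ CAR stromal-like class. For Ccl2 their interval, given below, overlapped that of granulocyte-like cells (77.2 CPM, 49.5 to 115), where 1 cell held 23 of the 24 UMIs. Cxcl1 was found in 18 of the 42 cells (42.9%, 27.7 to 59.0%) at 195 CPM (135 to 273), against 32 of 928 cells (3.45%) at 12.9 CPM in the main Lepr+ CAR stromal-like class. Ccl2 was found in 12 of them (28.6%) at 132 CPM (83.6 to 198), against 4.09% of cells at 25.5 CPM. Cxcl10 was found in 6 (14.3%) at 74.6 CPM, against 2.80% at 62.4 CPM. Cxcl14 was found in all 42, at 4903 CPM against 3533 CPM, while Ccl19 was at 48.8 CPM against 96.6 CPM. Within the control pool alone the 39 cells had 211.5 CPM of Cxcl1 and 147 CPM of Ccl2, against 15.5 and 30.6 CPM in the main class, and the 3 immobilized cells had 1 UMI of Cxcl1 and none of Ccl2. The 13 Rgs5-expressing cells had 0.5 UMI of Cxcl1 and none of Ccl2, with 5.5 UMIs of Cxcl10 in 2 cells.

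The 42 cells also stood apart in genes that the clustering had left out. The immediate early list (20 genes such as Fos, Jun and Egr1, induced within minutes of many stimuli including tissue digestion) summed to 16807 CPM in them, against 1364 CPM in the main class. Icam1, an NF-kB-driven adhesion gene, was at 313 CPM against 30.5 CPM, Nfkbia, the NF-kB inhibitor that NF-kB itself induces, at 485 against 179 CPM, and the heat shock list at 1383 against 707 CPM. Interferon-induced genes were at 1079 against 931 CPM. The part of the digestion in these levels was not tested. Of the 38 cells whose Xist and Y-linked counts gave a sex, 32 were female and 6 male, and 39 of the 42 came from the control pool. In the control pool, clusters 3 and 0 of the Lepr+ CAR stromal-like class had 190 and 56 female cells and no male ones. Their immediate early list was at 1860 and 1621 CPM, against 17833 CPM in the 39 control cells. The part of sex or pool in the state was not tested.

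Within the Lepr+ CAR stromal-like class, 5 clusters (0, 1, 3, 8 and 12) carried the genes unevenly. Cxcl14 was highest in cluster 12, at 9345 CPM in both pools with a UMI in every cell, followed by cluster 0 at 4030 CPM, cluster 8 at 2769, cluster 1 at 2243 and cluster 3 at 1689 CPM. Cxcl5 followed the same first steps, with 113 CPM in cluster 12 (32.2% of cells) and 66.5 CPM in cluster 0 (16.3%), against 11.7 CPM in cluster 8, 9.90 in cluster 1 and 7.70 in cluster 3. Kit, the stem cell factor receptor gene, was among the leading genes of both, at 504 CPM in cluster 0 with a UMI in 60.2% of its cells. Ccl19 was flatter, and its order differed between pools. In the immobilized pool it ran from 163 CPM in cluster 12, where 1 cell held 21.5 of the 28.5 UMIs, through 112 in cluster 8, 90.3 in cluster 1 and 71.4 in cluster 0 to 54.9 CPM in cluster 3. In the control pool it ran from 126 CPM in cluster 8 through 110 in cluster 1, 106.5 in cluster 3 and 80.4 in cluster 12 to 59.7 CPM in cluster 0. Ccl2 was high in clusters 3 and 8 in an order that differed between pools, with 1 or 2 cells holding much of each count. In the immobilized pool cluster 3 had 38.3 CPM (all 11.5 UMIs in 1 cell) and cluster 8 had 60.7 CPM (12.5 and 3.5 of 16.5 UMIs in 2 cells). In the control pool cluster 3 had 66.2 CPM (23.5 of 57.5 UMIs in 1 cell) and cluster 8 had 26.9 CPM (8 of 14.5 UMIs in 1 cell). Cxcl10 was highest in cluster 3 (147 CPM) and cluster 12 (120 CPM, nearly all of it the 1 cell described above).

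These clusters divided by sex of the cell. Clusters 0 and 3 were female: cluster 0 had 27 female and 6 male immobilized cells against 56 and 0 control cells, and cluster 3 had 61 and 0 against 190 and 0. Clusters 1, 8 and 12 were male, with 3 female and 143 male immobilized against 0 and 70 control cells in cluster 1, 2 and 39 against 3 and 100 in cluster 8, and 1 and 26 against 1 and 94 in cluster 12. With Xist, Tsix and Y-linked genes left out of the clustering the split remained: a cluster of 257 cells was 98.4% female and one of 240 cells 1.40% female. A cluster of 177 cells that took up all of cluster 12 and 32 cells of cluster 0 was 13.5% female and kept high Cxcl14 (8066 CPM) and Cxcl5 (122 CPM). The number of animals of each sex in a pool is not stated in the sources used here, and an effect of single animals cannot be told apart from sex.

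**Figure D3:**
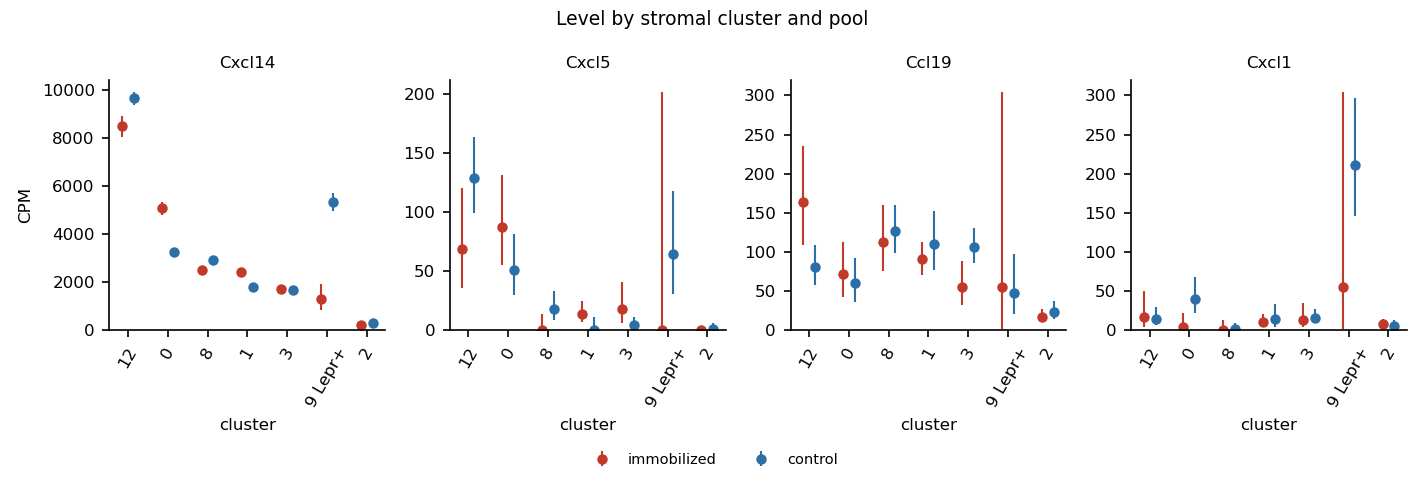
Levels (CPM) of Cxcl14, Cxcl5, Ccl19 and Cxcl1 in stromal clusters 12, 0, 8, 1 and 3, the Lepr-expressing cells of cluster 9 and osteo-primed cluster 2, with the immobilized pool left of the control pool and bars for the 95% Poisson interval. Cxcl14 and Cxcl5 are high in clusters 12 and 0 of either pool, Ccl19 is present in all of the first 5 clusters, and Cxcl1 is high in the control cells of cluster 9, where the immobilized value rests on 3 cells.

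Several of the sparse genes met in the same cells more often than elsewhere. Among skeletal and stromal cells of both pools, Ccl2 was found in 8 of 17 cells with Ccl7 (47.1%, 23.0 to 72.2%), against 1.91% of cells without it, at median depths of 5076 and 5855 UMIs. Ccl2 was found in 13 of 39 cells with Cxcl10 (33.3%, 19.1 to 50.2%), against 1.72% of cells without (6137.5 and 5832.5 UMIs). Within Lepr+ CAR stromal-like cells alone the shares were 7 of 14 (50%) against 3.39% for Ccl7, and 8 of 26 (30.8%, 14.3 to 51.8%) against 3.33% for Cxcl10. Ccl2 and Ccl7 are neighbours on chromosome 11, with Ccl7 starting 8258 bases after the end of Ccl2 on the same strand.

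Ccl2 was also found in 9 of 72 cells with Cxcl1 (12.5%, 5.88 to 22.4%) over all skeletal and stromal cells, against 1.91% of cells without. Within Lepr+ CAR stromal-like cells it was found in 1 of 32 cells with Cxcl1 (3.13%, 0.0791 to 16.2%), against 4.13% of cells without. Cxcl5, which lies 129616 bases before Cxcl1 on chromosome 5, was found in 8 of 32 Lepr+ CAR stromal-like cells with Cxcl1 (25.0%, 11.5 to 43.4%), against 8.59% of cells without. Cxcl14 was found in 53 of 56 skeletal and stromal cells with Ccl2 (94.6%, against 51.1% of cells without), 36 of 39 with Cxcl10 (92.3% against 51.5%), 88 of 94 with Cxcl5 (93.6% against 50.5%) and 55 of 72 with Cxcl1 (76.4% against 51.4%). Within Lepr+ CAR stromal-like cells, 96.1% of which had Cxcl14, the shares with and without Ccl2, Cxcl10, Cxcl5 or Cxcl1 all lay at 93.75% or above.

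Counting Ccl2, Ccl7, Cxcl1, Cxcl5 and Cxcl10 per cell, 50 of 1223 immobilized skeletal and stromal cells had 1 of them, 6 had 2, none had 3 and 1 had 4. Of 1311 control cells, 134 had 1, 30 had 2 and 6 had 3. Of the cells of both pools with several, 34 of the 36 with 2, all 6 with 3 and the 1 with 4 lay in the Lepr+ CAR stromal-like class or cluster 9. So did 149 of the 184 cells with 1 of the genes and 793 of the 2307 with none. Median depth was 4606.5 UMIs for cells with 2 and 7794.25 for cells with 3, against 5947.5 for cells with none.

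Cells with a UMI of a sparse gene also differed in the lists of state genes, compared here within Lepr+ CAR stromal-like cells. Cells with Ccl2 had a median of 4096 CPM of the NF-kB list (feedback inhibitors and targets such as Nfkbia, Tnfaip3 and Vcam1) in the immobilized pool (9 cells), against 2530 CPM in cells without, and 4039 against 2491 CPM in the control pool (29 cells). Cells with Cxcl10 had 1175 against 398 CPM of the interferon-induced list in the immobilized pool (6 cells) and 1778 against 719 CPM in the control pool (20 cells). The immediate early list went with Cxcl1 in the control pool, at 3172 against 657 CPM (23 cells), and was 532 against 382 CPM in the immobilized pool (9 cells). For Ccl19, whose cells are many, the interferon-induced list differed less than for Cxcl10, at 497 against 349 CPM (126 immobilized cells) and 793 against 703 CPM (228 control cells). Immobilized cells with a sparse gene were deeper, with medians of 7171.5 against 4402.5 UMIs for Ccl2 and 7724.25 against 4419.5 for Cxcl10. Depth differed less in the control pool (4746 against 3927 for Ccl2, and 3916.25 against 3983.75 for Cxcl10). Cells with Cxcl5 had less of the list of gp130 receptors and signalling genes, at 1740 against 2435 CPM (29 immobilized cells) and 2017 against 2844 CPM (56 control cells). Clusters 12 and 0, where Cxcl5 was highest, had 1999 and 2410 CPM of that list over all their cells, against 2584 to 4170 CPM in clusters 1, 3 and 8, and the part of the clusters in the difference was not tested.

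**Figure D4:**
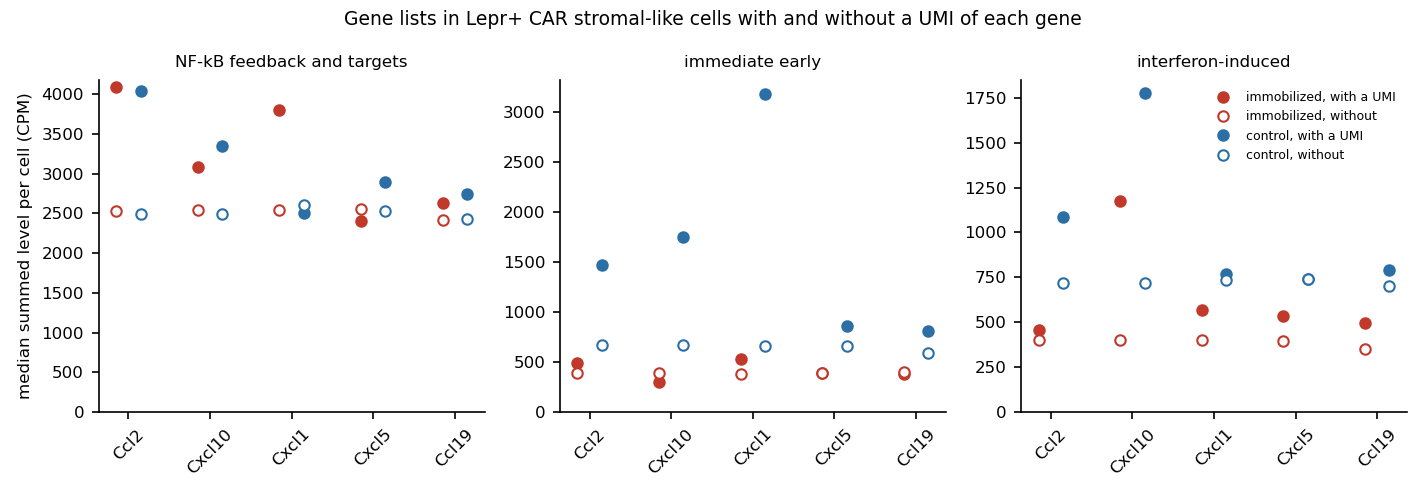
Median summed level per cell (CPM) of the NF-kB, immediate early and interferon-induced lists in Lepr+ CAR stromal-like cells with (filled) and without (open) a UMI of Ccl2, Cxcl10, Cxcl1, Cxcl5 or Ccl19, immobilized left of control. The NF-kB list is higher in cells with Ccl2 and the interferon-induced list in cells with Cxcl10 in both pools, and the immediate early list stands out for Cxcl1 in the control pool.

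Promoters of some of these genes are shown from RefSeq (GRCm38.p6, the sequence of mm10), since NF-kB and interferon factors read short DNA words near the start. In the 250 bases before the RefSeq start, matches to the kappa-B consensus of NF-kB on either strand were found in 3.90% of 32851 mouse promoters, and GAAA, any 2 bases, GAAA, the core of interferon-stimulated elements, in 2.98%. Of the 10 genes 7 were matched in the promoter table, and Ccl2, Ccl7 and Cxcl5 are named only. Capitals mark the matches, and each sequence reads 5′ to 3′ on the gene's strand. Cxcl1 (chr5:90891125-90891244, plus strand) and Cxcl2 (chr5:90903779-90903898, plus strand), neighbours 10755 bases apart, hold the same capital stretch, which is a match on each strand overlapping the other. Cxcl10 (chr5:92348890-92349139, minus strand) holds the GAAA pair followed by a pair of kappa-B matches. Il6 (chr5:30012994-30013113, plus strand) holds 1 kappa-B match. Cxcl14 (chr13:56296552-56296671, minus strand), the broadly expressed gene, is shown for contrast.
Cxcl1: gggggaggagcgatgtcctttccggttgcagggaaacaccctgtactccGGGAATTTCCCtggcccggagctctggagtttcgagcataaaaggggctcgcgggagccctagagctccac
Cxcl2: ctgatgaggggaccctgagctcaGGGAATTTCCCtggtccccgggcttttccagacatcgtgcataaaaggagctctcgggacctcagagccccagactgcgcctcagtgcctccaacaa
Cxcl10: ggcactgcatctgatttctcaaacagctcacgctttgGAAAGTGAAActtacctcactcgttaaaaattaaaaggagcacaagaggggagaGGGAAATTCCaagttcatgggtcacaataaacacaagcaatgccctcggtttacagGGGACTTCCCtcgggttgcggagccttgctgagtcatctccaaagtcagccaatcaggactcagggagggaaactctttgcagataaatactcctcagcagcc
Il6: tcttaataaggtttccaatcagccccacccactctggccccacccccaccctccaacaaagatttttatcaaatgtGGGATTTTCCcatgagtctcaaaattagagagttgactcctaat
Cxcl14: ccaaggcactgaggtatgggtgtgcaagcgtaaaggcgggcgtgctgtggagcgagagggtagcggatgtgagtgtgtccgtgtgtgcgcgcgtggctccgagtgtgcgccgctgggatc

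Starts here are those of RefSeq, which lie 4 bases (Cxcl1), 28 bases (Cxcl2), 11 bases (Lif) and 212 bases (Ccl19) inside the gene spans of GENCODE given above and coincide with them for Cxcl10, Cxcl14 and Il6. The Cxcl1 match begins 71 bases before the RefSeq start, that of Cxcl2 97 and that of Il6 44 bases, and those of Cxcl10 begin 159 and 103 bases before it with the GAAA pair at 213. Cxcl14 had no kappa-B match in the 250 bases and a GAAA pair 172 bases before the start, outside the stretch shown. Ccl19 had a GAAA pair 208 bases before the RefSeq start, within the GENCODE span, and no kappa-B match in the window, and Lif had neither word. A match describes letters only: Cxcl1 and Cxcl2 share theirs, yet Cxcl1 was found in stromal cells and Cxcl2 in granulocyte-like cells.

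In Lepr+ CAR stromal-like cells the level of each of the 6 measured genes was lower in the immobilized than in the control pool, by less than 2-fold, and with each cluster given the same weight Cxcl5 (log2 ratio 0.03), Cxcl10 (0.32) and Cxcl14 (0.08) were above 0 instead. The counting intervals of Ccl19, Cxcl5 and Cxcl1 included 0. Cxcl14 was at 3259 against 3730 CPM (log2 ratio of immobilized to control -0.19, interval -0.24 to -0.15), Ccl19 at 92.0 against 99.9 CPM (-0.12, -0.41 to 0.17), and Cxcl5 at 28.0 against 37.0 CPM (-0.40, -0.92 to 0.10). Ccl2 was at 18.2 against 30.6 CPM in 9 of 350 against 29 of 578 cells (-0.74, -1.38 to -0.15), Cxcl1 at 9.23 against 15.5 CPM (-0.73, -1.66 to 0.10), and Cxcl10 at 46.7 against 73.7 CPM (-0.65, -1.04 to -0.28). The median over the 6 was -0.53, against 0.02 over all genes measured. None of the 6 passed 2-fold, where 1.69% of all genes were higher and 1.52% lower. With the 42 cells of cluster 9 counted in the class, 2 of them passed 2-fold downward: Ccl2 with 33.5 against 102 UMIs (-1.04) and Cxcl1 with 18 against 73 UMIs (-1.43).

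The sex of the cells moved with these ratios, as 30.5% of sexed immobilized and 48.6% of sexed control Lepr+ CAR stromal-like cells were female. Cxcl5 was higher in the immobilized pool among female cells (26.5 UMIs in 94 cells against 19 in 250, log2 ratio 1.78, 0.88 to 2.72) and lower among male cells (20.5 UMIs in 214 cells against 61 in 264, -1.57, -2.39 to -0.85). Of the 26.5 UMIs, 16 were in 1 cell of cluster 0. Cxcl14 was at 3355 against 2199 CPM among female cells (0.61, 0.52 to 0.70) and at 3208 against 5119 CPM among male cells (-0.67, -0.73 to -0.61). Cxcl10 had 0 against 174.5 UMIs among female cells, at least 23.5-fold lower by counting error alone with a floor of 3 UMIs over the immobilized female cells, where 110.5 and 37 of the control UMIs were in 2 cells, and 86 against 6 UMIs among male cells (3.72, 2.64 to 5.31), where 80.5 of the 86 were in 1 cell. The floor does not cover the sampling of cells, as 0 of 94 immobilized and 13 of 250 control female cells held Cxcl10. Ccl19 differed less, with log2 ratios of -0.47 and 0.00. The sexes also differ in cluster makeup between the pools: within cluster 12 male cells Cxcl14 was at 9619 against 9595 CPM (0.00, -0.09 to 0.09), whereas within cluster 0 female cells, 27 immobilized and 56 control, the log2 ratio was 0.86 (0.73 to 0.98). The other female cluster, cluster 3 with 61 and 190 cells, had a Cxcl14 log2 ratio of 0.07 (-0.09 to 0.23), and the other male clusters had 0.37 (0.23 to 0.51, cluster 1) and -0.22 (-0.36 to -0.07, cluster 8), so none of the 3 male clusters showed the -0.67 of all male cells. Cxcl5 in the cluster 12 male and cluster 0 female cells had log2 ratios of -0.56 (-1.64 to 0.31) in cluster 12 and 1.13 (0.15 to 2.16) in cluster 0. In cluster 0, 1 cell held 16 of the 21 immobilized UMIs of female cells.

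Cluster 12, the Cxcl14-high one, made up 31 of 350 immobilized and 112 of 578 control Lepr+ CAR stromal-like cells, and without clusters 0 and 12 the class had a Cxcl14 log2 ratio of 0.13 and a Cxcl5 ratio of 0.67. Cxcl10 changed place by cluster, with 80.5 immobilized against 1.5 control UMIs in cluster 12 and 0 against 172 in cluster 3, at least 19.9-fold lower there with a floor of 3 UMIs over the pool's cells. In both clusters 1 or a few cells made the count, which the floor, set for counting error alone, does not cover.

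In osteo-primed stromal-like cells Cxcl14 had a log2 ratio of -0.49 (-0.73 to -0.24) and Ccl19 of -0.31 (-0.98 to 0.36), neither past 2-fold, where 1.53% of all genes were higher and 1.01% lower. Il6 had 0 immobilized against 12 control UMIs in this class, all 12 in 2 cells. Granulocyte-like cells, which should lack Cxcl14, had 2 UMIs of it in the immobilized and 129 in the control pool. Over both pools they were at 422 CPM of Cxcl14, against 144 CPM in osteo-primed stromal-like cells. The part of background in the osteo-primed Cxcl14 ratio was not tested. In osteoblast-like cells Cxcl1 had 3.5 against 22 UMIs (-2.11, -4.44 to -0.64) and was the 1 measured gene past 2-fold, where 3.98% of all genes were higher and 1.23% lower. With the stricter cell filter Cxcl1 had 2.5 against 12.5 UMIs, under the minimum (-0.93). The 22 control UMIs included cells with 7 and 6.5, and without the 3 highest cells of each pool 0 against 5.5 UMIs were left, too few to measure. Cxcl14 was at 8.83 against 15.9 CPM in osteoblast-like cells (-0.84, -1.46 to -0.26), at levels in the range read as background above.

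Over all skeletal and stromal cells, where class sizes enter, 3 of 6 measured genes were lower past 2-fold and none higher, against 1.56% of all genes lower and 2.1% higher. Ccl2 had 35 immobilized against 106.5 control UMIs (-1.38, -1.99 to -0.83), Cxcl1 32 against 106 (-1.50, -2.14 to -0.94) and Cxcl10 88.5 against 208.5 (-1.02, -1.40 to -0.66). Cxcl5 (-0.77), Cxcl14 (-0.55) and Ccl19 (-0.29) were lower by less than 2-fold, and the median of all genes was 0.12. With each cluster given the same weight, Cxcl1 stayed past 2-fold (-1.21), Ccl2 did not (-0.47) and Cxcl10 was higher in the immobilized pool (0.24). By sex, Cxcl10 had 0 against 187.5 UMIs among female cells, at least 40.9-fold lower by counting error alone with the floor of 3 UMIs, and 88.5 against 11.5 UMIs among male cells (2.22, 1.38 to 3.3). Among female cells 0 of 649 immobilized and 22 of 842 control ones held Cxcl10. Lepr+ CAR stromal-like cells were 25.3% of the immobilized and 40.8% of the control pool, and cluster 9 had 8 immobilized and 47 control cells.

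**Figure D5:**
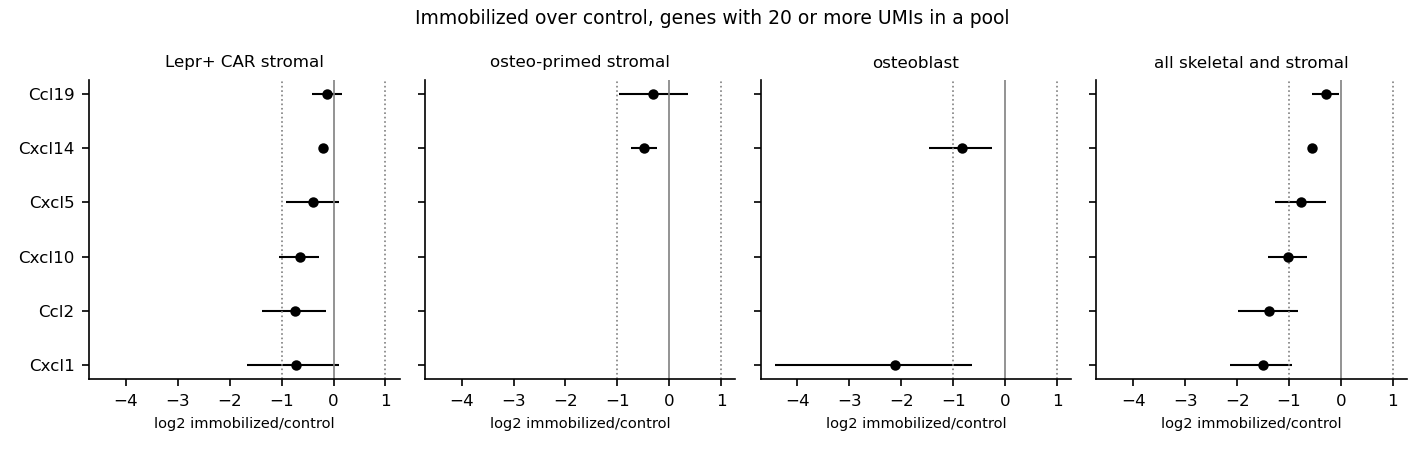
Log2 ratio of immobilized to control CPM with its 95% counting interval for each measured gene in Lepr+ CAR stromal-like, osteo-primed stromal-like, osteoblast-like and all skeletal and stromal cells; dotted lines mark 2-fold. All points lie below 0, a direction that Cxcl5, Cxcl10 and Cxcl14 in Lepr+ CAR stromal-like cells and Cxcl10 over all skeletal and stromal cells do not keep when each cluster has the same weight, and those past 2-fold are Cxcl1 in osteoblast-like cells and Ccl2, Cxcl1 and Cxcl10 over all skeletal and stromal cells.

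Related genes were read from lists in the same classes. Of 23 other chemokines 7 were measured in Lepr+ CAR stromal-like cells, with 1 higher and 2 lower past 2-fold and a median log2 ratio of -0.15. Cxcl9, the interferon-gamma-induced partner of Cxcl10 at CXCR3, was lower at 148 against 310 CPM (-1.06). It was found in more cells than Cxcl10, with 272.5 UMIs in 31 of 350 immobilized and 798.5 UMIs in 106 of 578 control cells. It was not as widely spread as Ccl19, which had 169.5 UMIs in 126 and 257.5 UMIs in 228 of these cells. Ccl27a was at 3.53 against 9.70 CPM (-1.38), and Pf4, a platelet chemokine, at 13.6 against 3.88 CPM (1.77) on 25 and 10 UMIs. None of 7 other gp130 ligands reached the minimum in Lepr+ CAR stromal-like, osteo-primed stromal-like or osteoblast-like cells. Most gp130 receptor and signalling genes were measured and differed little between pools, but Il6ra, the IL-6 receptor gene, was sparse. It had 15 UMIs in 22 of 1223 immobilized and 21.5 UMIs in 30 of 1311 control skeletal and stromal cells. Of 16 gp130 receptor and signalling genes 14 were measured in Lepr+ CAR stromal-like cells, with none past 2-fold and a median of -0.22. Il6st was at 271 against 247 CPM and Lifr, the LIF receptor gene, at 1217 against 1310 CPM. In osteo-primed stromal-like cells Lifr was at 6250 against 5767 CPM and in osteoblast-like cells at 1329 against 955 CPM, again with none of 13 measured genes past 2-fold in either class. Of 14 chemokine receptors 1 was measured in Lepr+ CAR stromal-like cells, the scavenging receptor Ackr4 of CCL19, at 293 against 345 CPM (-0.23). Over all skeletal and stromal cells, where class sizes enter, Ackr3, a scavenger of CXCL12, was at 11.7 against 4.56 CPM (1.34). Ackr3 was among the leading genes of the osteocyte-like cells, of which there were 40 immobilized and 5 control. Within osteoblast-like cells its log2 ratio was 0.74 (-0.04 to 1.54). The part of class size in the difference was not tested.

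The lists of state genes were compared between the pools in the same way. Of 14 interferon-induced genes measured in Lepr+ CAR stromal-like cells 10 were lower past 2-fold and none higher, with a median of -1.11 and Isg15 at 35.6 against 126 CPM. In osteo-primed stromal-like cells 10 of 12 were lower (median -1.49) and in osteoblast-like cells 6 of 7 (median -2.42). Of 16 NF-kB genes measured in Lepr+ CAR stromal-like cells none passed 2-fold (median -0.04), with Icam1 at -0.60 and Nfkbia at -0.67. In osteoblast-like cells 1 of 14 was lower, Icam1 at 0.631 against 12.2 CPM (-4.02). Of the immediate early genes 1 of 16 was lower in Lepr+ CAR stromal-like cells (Ier2, -1.18), with a median of -0.82, and of the heat shock genes 3 of 8 were lower (median -0.71). Immediate early and heat shock genes respond to tissue handling, and how each pool was handled cannot be told apart from immobilization.

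Genes most like each broad member in pattern were found by correlation over single skeletal and stromal cells (1223 immobilized and 1311 control cells, 11019 genes), where cells share depth and class and the values are descriptions. Cxcl14 went with Apoe (r = 0.84 in immobilized and 0.85 in control cells), Serping1 (0.86 and 0.81), Cxcl12 (0.82 and 0.84), Igfbp7 (0.79 and 0.84) and Hp (0.78 and 0.81), all genes of the Lepr+ CAR stromal-like class. Ccl19 was less tightly tied to the same set, led by Serping1 (0.44 and 0.45), Hp (0.45 and 0.42), Rarres2 (0.40 and 0.45), Apoe (0.39 and 0.45) and Igfbp7 (0.40 and 0.43). Cxcl5, sparse as it was, had Fndc1 (0.36 and 0.29), Kit (0.31 and 0.32), Cxcl14 (0.30 and 0.31), Spry1 (0.31 and 0.28) and Itih5 (0.17 and 0.33).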

How the data were processed

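The deposited matrices give unnormalized UMI counts for each feature in each barcode, made by the authors from 10x 3' v3.1 libraries with Cell Ranger 7.0.0 on mm10, per the submitters' processing notes. No columns were left out. The UMI totals of barcodes correlated between the lanes of a pool at 0.9998 (immobilized) and 0.9999 (control), and the lanes differed by less than sampling noise (chi-square per gene of 0.586 and 0.534) and were averaged as 1 sample. Cells with 500 or more genes and under 10% mitochondrial UMIs were kept, and Scrublet calls were removed (16 immobilized and 8 control barcodes, 0.916% and 0.495%), leaving 79.3% and 87.7% of barcodes. More barcodes were over the mitochondrial limit in the immobilized pool (300 against 146), and kept cells had medians of 4.38% and 3.36% mitochondrial UMIs.

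Counts were scaled to 10000 per cell, and 2000 variable genes, 30 principal components and 15 neighbours were used for Leiden clustering at resolution 1 (scanpy 1.11.5, igraph 0.11.9), leaving the 10 genes and the 8 pathway lists (131 genes) out of the variable genes. Each of the 18 clusters was named from 22 marker lists when 3 or more markers, and 30% of the list, were over 2-fold above other cells and in 10% or more of its cells. Levels are summed UMIs per 1000000 with exact Poisson intervals, shares have exact Clopper-Pearson intervals, and log2 ratios, with 0.5 UMI added, have exact conditional binomial intervals, all at 95% and for counting error only. A gene was measured at 20 or more UMIs in a pool, and 2-fold calls were read beside the same share of all genes. Thinning to 2000 UMIs left out shallower cells (14.5 immobilized and 51.5 control Lepr+ CAR stromal-like cells, averaged over lanes). The calculations were tested on simulated data.

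All 10 genes are named. Of each pathway list, genes were named by the 4 largest ratios in a class and by being a measured chemokine, ligand or receptor. The 10 genes, the pathway lists and the marker lists were chosen with earlier results of these data known. Alternatives covered filters, doublet calls, clustering, scaling, lanes, sex of the cells, count minimums and the highest cells. Leaving out clusters 0 and 12, moving or leaving out cluster 9 and leaving sex-linked genes out of the clustering were added after seeing the data.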

Additional observations from a re-analysis of the deposited data

Results flagged for a closer look

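Within Lepr+ CAR stromal-like cells, 3 genes had opposite directions in female and male cells, and the difference between the sexes was not tested. The log2 ratio of immobilized to control was 1.78 in female and -1.57 in male cells for Cxcl5, 0.61 and -0.67 for Cxcl14, and -7.14 and 3.72 for Cxcl10. Over all skeletal and stromal cells Cxcl10 had -7.94 in female and 2.22 in male cells. The negative Cxcl10 ratios are set against an immobilized pool with 0 UMIs in female cells, so their size depends on the 0.5 UMI added. As bounds for counting error alone, Cxcl10 was at least 23.5-fold lower in immobilized female Lepr+ CAR stromal-like cells and at least 40.9-fold lower over female skeletal and stromal cells, with a floor of 3 UMIs over the pool. These bounds do not cover the sampling of cells. A UMI was held by 0 of 94 and 0 of 649 immobilized female cells, against 13 of 250 and 22 of 842 control ones. Of the 174.5 and 187.5 control UMIs of these female cells, 110.5 and 37 were in 2 cells, and 80.5 of the 86 immobilized UMIs of male Lepr+ CAR stromal-like cells were in 1 cell. For Cxcl5, 16 of the 26.5 immobilized UMIs of female Lepr+ CAR stromal-like cells were in 1 cell. For Cxcl14 the directions by sex did not hold within clusters, with 0.86 and 0.07 in female clusters 0 and 3, and 0.37, -0.22 and 0.00 in male clusters 1, 8 and 12, and the cluster makeup differed between the pools.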

How the results depend on the processing

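No paired analysis was possible because the lanes with the same number are technical repeats of 1 library per pool and no result comes from a test. Of 272 alternative values of 16 log2 ratios, 217 stayed within the counting interval and 53 moved outside it without turning a ratio reported past 2-fold. In the remaining 2 such a ratio turned: Cxcl10 over all skeletal and stromal cells was 2.22 in male cells alone and 0.24 with each cluster given the same weight. In Lepr+ CAR stromal-like cells none of the genes passed 2-fold as reported. The number past 2-fold in either direction was 2 with the looser cell filter, with Scrublet calls kept, at resolution 0.5, in male cells alone (Cxcl5 -1.57 and Cxcl10 3.72), without clusters 0 and 12, with the Lepr-expressing cells of cluster 9 counted in the class and with Xist, Tsix and Y-linked genes left out of the clustering. It was 3 in female cells alone, with Cxcl1 (-1.50) and Cxcl10 (-7.14, on 0 immobilized UMIs) lower and Cxcl5 (1.78) higher. Without the 3 highest cells of each pool it was also 3 (Ccl2 -2.17, Cxcl1 -1.87, Cxcl10 -3.59). It was 1 at resolution 2.0 and with a count minimum of 10, and 0 to 1 with a lane left out (1 without lane 1, Ccl2 at -1.05). In osteo-primed stromal-like cells the number was 0 and became 1 (Il6) with a count minimum of 10. In osteoblast-like cells the 1 gene was Cxcl14 (-1.11) in place of Cxcl1 with the stricter cell filter. The number became 2 (Cxcl1 and Cxcl14) with Scrublet calls kept, with median-ratio scaling and with equal cluster weights, 0 in male cells alone, without the 3 highest cells and with a count minimum of 50, and 0 to 1 with a lane left out (0 without lane 2, where Cxcl1 had 19 UMIs and was under the minimum). The few-cell count changed from 5 to 1 in female cells alone and to 3 with a minimum of 50 in the immobilized pool, and from 4 to 2 in male cells alone in the control pool.

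The number of genes whose highest level was in Lepr+ CAR stromal-like cells was the least stable, since cluster 9 was above them for several genes. It was 2 as reported, 4 with the stricter filter, 5 with the looser filter, with Scrublet calls kept, at resolutions 2.0 and 0.5, without sex-linked genes, and with cluster 9 moved or left out, 6 in female and 7 in male cells alone, and 1 with the lists kept in the clustering and without clusters 0 and 12. Over 17 alternatives each, the sign of the reported ratio was kept in 16 for Ccl2, Cxcl1 and Ccl19, 15 for Cxcl10 and 14 for Cxcl5 and Cxcl14 in Lepr+ CAR stromal-like cells, and in 17 for Ccl2, Cxcl1, Cxcl14 and Ccl19, 16 for Cxcl5 and 15 for Cxcl10 over all skeletal and stromal cells. Where no value shows it, the cause was not tested. Depth limits Ccl7, Il6 and Lif, which had 16 UMIs or fewer in a pool.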
